A study of Mus musculus with 13 samples.

Results

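The genes described here encode proteins that remove introns from pre-mRNA: SR proteins, proteins of the small nuclear ribonucleoproteins (snRNPs), heterogeneous nuclear ribonucleoproteins (hnRNPs) and the Clk kinases. Members were chosen by name: every gene whose symbol starts with Srsf, Snrp, Sf3a, Sf3b or Hnrnp, together with Clk1 to Clk4, taken from probe sets that the platform annotation assigns to 1 gene. This gave 51 of the 18193 genes measured, read by 144 probe sets: 10 SR genes, 18 snRNP genes, 19 hnRNP genes and 4 Clk genes. Of these, 15 genes had 1 probe set and 36 had several, at most 7. Snrpa, Snrpd1, Snrpd2, Hnrnpa3 and Hnrnpa1l2-ps2 were present only on probe sets that name several genes and were not counted as members.

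C2C12 cells, a mouse skeletal myoblast line, were kept for 24 h in medium with 0.2% fetal bovine serum and then given serum again. RNA from parallel flasks was hybridised to 1 Affymetrix array for each of 13 times, 0 to 6.0 h in steps of 0.5 h, so no time had a replicate. Arrays were grouped by labelled time into the single 0 h array, taken at the end of serum starvation, an early window (0.5 to 2.0 h, 4 arrays), a middle window (2.5 to 4.0 h, 4 arrays) and a late window (4.5 to 6.0 h, 4 arrays). All cells were of 1 unmodified line, and every array, 0 h included, came from cells that had been starved; cells that were never starved were not analysed here. Each probe set was deposited as a ratio to its own reference value, and all levels below are log2 of that ratio, averaged over a gene's probe sets. They show change in time but no absolute level, so genes cannot be ranked by abundance, and the myoblast label could not be checked against marker levels. Spread within a window holds technical variation and real change together; its median over members was 0.105 (residual SD, log2 scale), against 0.102 over all genes.

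Splicing is carried out by the spliceosome, in which the snRNPs recognise the ends and the branch point of each intron. SR proteins bind exons through RNA recognition motifs and recruit the spliceosome through domains rich in arginine and serine, while many hnRNPs bind nascent transcripts and block or redirect splice site choice. Clk kinases phosphorylate the arginine-serine domains of SR proteins and so control where these proteins sit in the nucleus and how active they are. Several SR and hnRNP genes control their own mRNA through alternative exons that carry a premature stop codon.

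The 5 promoters below belong to members on which the results turn, chosen after their values were seen: Srsf5 peaked early, Srsf3 was low at 0 h, Clk2 dipped early, and Snrpa1 and Hnrnpd were both highest at 6.0 h. Each window runs from 250 bases before to 50 bases after a RefSeq transcription start in build GRCm38.p6, written in the direction of transcription. They lie at chr12:80945249-80945548 (Srsf5, plus strand), chr17:29032410-29032709 (Srsf3, plus strand), chr3:89164545-89164844 (Clk2, plus strand), chr7:66060086-66060385 (Snrpa1, plus strand) and chr5:99978889-99979188 (Hnrnpd, minus strand). Capitals mark the letters of the motifs searched on both strands: the ETS motif CCGGAAGT, the E-box CACGTG, the cAMP response element TGACGTCA, the E2F motif TTTCCCGC and the serum response element core, the CArG box.
Srsf5: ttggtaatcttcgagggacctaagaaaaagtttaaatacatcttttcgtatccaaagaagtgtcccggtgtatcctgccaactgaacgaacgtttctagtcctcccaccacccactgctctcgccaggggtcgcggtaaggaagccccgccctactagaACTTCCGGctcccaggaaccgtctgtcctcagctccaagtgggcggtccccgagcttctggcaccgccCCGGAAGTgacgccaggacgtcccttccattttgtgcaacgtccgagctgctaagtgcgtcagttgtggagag
Srsf3: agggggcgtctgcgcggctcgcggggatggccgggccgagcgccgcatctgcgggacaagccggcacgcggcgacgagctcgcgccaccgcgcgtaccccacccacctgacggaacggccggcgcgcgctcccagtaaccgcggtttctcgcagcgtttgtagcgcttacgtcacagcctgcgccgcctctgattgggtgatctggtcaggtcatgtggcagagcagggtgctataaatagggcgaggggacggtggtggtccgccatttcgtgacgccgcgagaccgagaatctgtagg
Clk2: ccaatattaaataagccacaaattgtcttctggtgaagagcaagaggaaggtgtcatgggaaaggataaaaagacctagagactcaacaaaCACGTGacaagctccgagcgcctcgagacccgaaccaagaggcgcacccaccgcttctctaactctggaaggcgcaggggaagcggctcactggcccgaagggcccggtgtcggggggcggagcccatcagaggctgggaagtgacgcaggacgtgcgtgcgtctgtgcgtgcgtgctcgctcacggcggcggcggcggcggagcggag
Snrpa1: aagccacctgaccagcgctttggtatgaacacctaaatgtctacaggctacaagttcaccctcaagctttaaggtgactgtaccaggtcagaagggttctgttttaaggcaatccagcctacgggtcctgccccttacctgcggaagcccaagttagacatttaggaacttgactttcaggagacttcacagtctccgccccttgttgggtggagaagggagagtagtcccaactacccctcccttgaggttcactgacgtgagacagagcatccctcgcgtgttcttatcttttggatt
Hnrnpd: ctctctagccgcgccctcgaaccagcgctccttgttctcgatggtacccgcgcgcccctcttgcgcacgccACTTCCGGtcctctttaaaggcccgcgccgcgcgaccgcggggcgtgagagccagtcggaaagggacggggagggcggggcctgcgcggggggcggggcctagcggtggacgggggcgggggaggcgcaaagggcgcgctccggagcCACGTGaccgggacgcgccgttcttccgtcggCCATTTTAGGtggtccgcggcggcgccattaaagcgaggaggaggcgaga
The Srsf5 window holds 2 ETS motifs, the Clk2 window an E-box, and the Hnrnpd window an ETS motif, an E-box and a CArG box; the letters of none of the 5 motifs occur in the Srsf3 and Snrpa1 windows. Promoters were found for 45 of the 51 members. The ETS letters occur in at least 1 window of 9 of these 45 genes (20%), against 4.31% of 27025 genes with a promoter in the table: 3 of 10 SR genes, 4 of 15 snRNP genes, 2 of 17 hnRNP genes and 0 of 3 Clk genes. E2F letters occur in 4 members (8.89%), against 1.24% of all genes. The other motifs occur in 5 members (11.1%) against 8.09% of all genes for the E-box, 2 (4.44%) against 2.03% for the cAMP response element, and 1 (2.22%) against 1.81% for the CArG box. These shares describe letters in the windows and were not tested.

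Late medians of snRNP and hnRNP genes lay above those of the middle window, and in the middle window most hnRNP genes were lower than early. In the first 2.0 h the SR median climbed, and at 4.0 h it was back near its value at 0 h. Timing was not tested between the groups, whose courses are described by medians and counts. Median SR values were -0.20 at 0 h, -0.16 at 0.5 h, -0.11 at 1.0 h, -0.02 at 1.5 h and 0.05 at 2.0 h. They were -0.12, 0.02, -0.05 and -0.19 across the middle window and -0.03, -0.02, 0.08 and 0.02 across the late one. The hnRNP median stood at 0.03, 0.03, 0.08 and 0.06 across the late window, against -0.09, -0.06, -0.12 and -0.19 across the middle one. For snRNP genes the medians were 0.04, 0.09, 0.05 and 0.14 in the late window, against -0.09, -0.01, -0.08 and -0.02 in the middle window. Late medians of hnRNP and snRNP genes were thus above every middle median of the same group. The medians of all genes had the same order, at 0.00 on each late array. In the middle window they were -0.05, -0.02, -0.03 and -0.03. The 4 Clk genes had medians between -0.17 at 0.5 h and 0.17 at 4.5 h, with no window set apart.

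**Figure D1:**
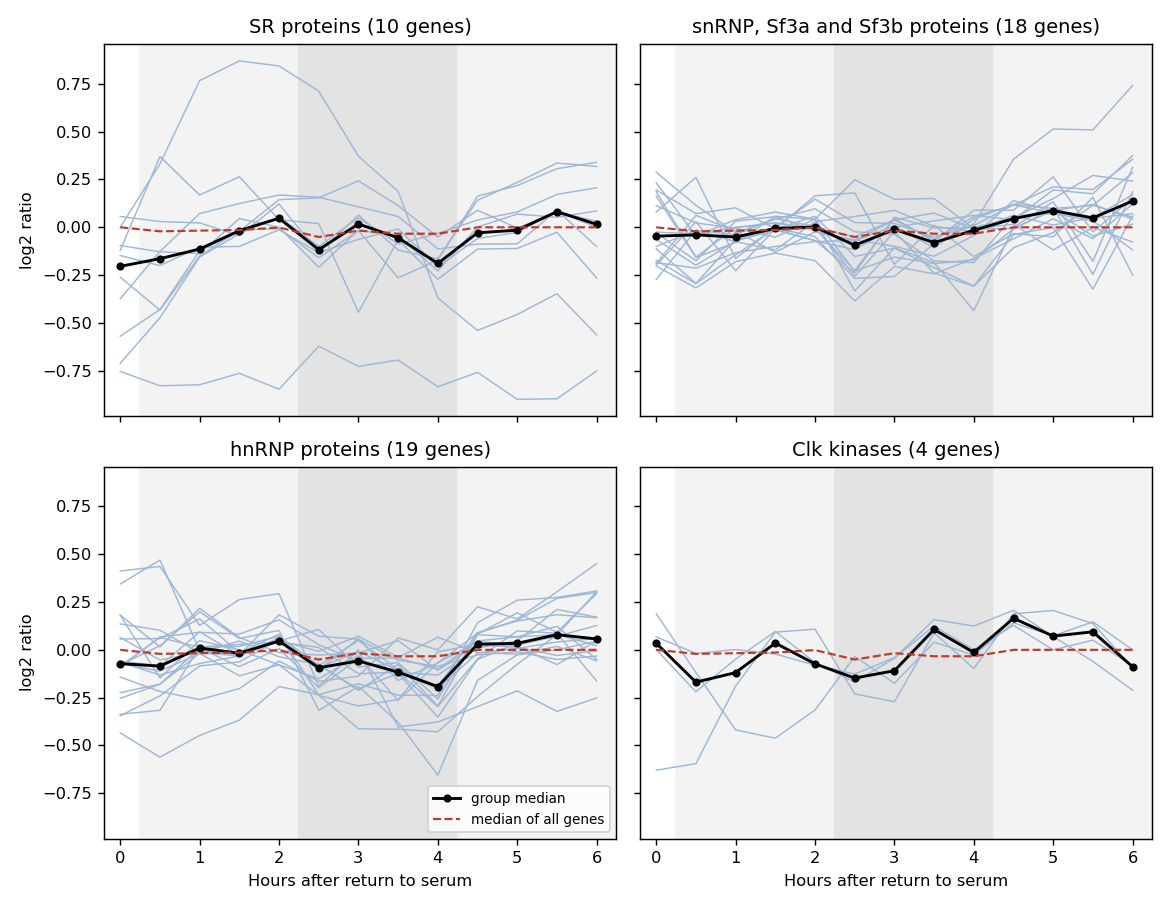
Log2 ratio (vertical axis) against hours after return to serum (horizontal axis) for the members of each group, with 1 thin line per gene the group median as a thick line, the median of all genes as a dashed line and shaded bands for the early, middle and late windows. The hnRNP median was lowest at 4.0 h (-0.19), and Srsf12 lay far below 0 on every array.

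The highest array of 11 of 19 hnRNP genes and of 11 of 18 snRNP genes fell in the late window. The lowest array fell in the middle window for 13 of 19 hnRNP genes, and for 6 of 18 snRNP genes. Such counts were not made over all genes, so no background share stands beside them. The medians of all genes were themselves below 0 on every middle array and 0.00 on every late array. SR genes had no common time: 4 were highest early, 2 in the middle window and 4 late. A spline over time called a smooth course in 24 of 51 members (47.1%), where the background over all genes was 38.0% (limma F test, adjusted p under 0.05 over 18193 genes, as in all calls below). By group these were 7 of 10 SR genes, 6 of 18 snRNP genes, 9 of 19 hnRNP genes and 2 of 4 Clk genes.

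Srsf5 had the widest course of all 51 members. It encodes an SR protein known from rat liver cells as an insulin-induced growth response gene, and lies at chr12:80945495-80950507 (GRCm38.p6). Its log2 ratio was 0.00 at 0 h, 0.33 at 0.5 h, 0.77 at 1.0 h, 0.87 at 1.5 h, 0.84 at 2.0 h, 0.71 at 2.5 h, 0.37 at 3.0 h, 0.19 at 3.5 h, -0.37 at 4.0 h, -0.54 at 4.5 h, -0.46 at 5.0 h, -0.35 at 5.5 h and -0.56 at 6.0 h. The gene climbed for 1.5 h, held until 2.5 h, and from 4.0 h on lay below its value at 0 h. The highest array was 2.70-fold above the lowest. Early arrays averaged 0.70 ± 0.25, middle arrays 0.23 ± 0.45 and late arrays -0.48 ± 0.10 (SD, n = 4 each), and all 4 late values lay below all 4 early values. The difference of late minus early was -1.18 ± 0.18 (SE, adjusted p = 0.000285), that of late minus middle -0.70 ± 0.18 (adjusted p = 0.0195), and the smooth course had an adjusted p of 1.29e-07. Early minus 0 h was 0.70 ± 0.28, which missed the threshold (adjusted p = 0.176), and rests on 1 array at 0 h. The late-minus-middle call was lost without the 2.5 h, the 3.0 h or the 6.0 h array. Srsf5 was read by 1 probe set, so no second probe set checks this course.

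Srsf3, Srsf2 and Srsf6 were lowest at 0 h and higher by 2.0 h. Srsf3 (chr17:29032660-29043372) encodes a small SR protein that also acts in mRNA export and regulates the splicing of its own transcript. It stood at -0.71 at 0 h, -0.47 at 0.5 h, -0.16 at 1.0 h, -0.03 at 1.5 h and 0.05 at 2.0 h, and then between -0.10 and 0.21 on all later arrays. All 4 early values lay above the 0 h value and climbed with time, which widens the spread within the early window. Early minus 0 h was 0.56 ± 0.15 and missed the threshold (adjusted p = 0.0511), late minus early was 0.28 ± 0.09 (adjusted p = 0.0461), and the smooth course had an adjusted p of 1.02e-05. Early minus 0 h passed with arrays centred on their median (adjusted p = 0.0465), without probe sets ending in _x_at or _s_at (adjusted p = 0.0395) and, at an adjusted p just under 0.05, without probe sets on 1 side of a ratio of 1, while quantile normalisation gave 0.41 (adjusted p = 0.308). The late-minus-early call was lost under 12 of the alternative settings, among them the leaving out of single arrays.

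Srsf2 and Srsf6 were not picked by the naming rule and are given because their course in the first hours resembled that of Srsf3. Srsf2, an SR protein of nuclear speckles that autoregulates its mRNA, stood at -0.57 at 0 h, -0.43 at 0.5 h, -0.12 at 1.0 h, -0.02 at 1.5 h and 0.14 at 2.0 h, and was highest at 3.0 h (0.24). Srsf6 stood at -0.37 at 0 h, -0.13 at 0.5 h, 0.07 at 1.0 h, 0.12 at 1.5 h and 0.17 at 2.0 h. Early minus 0 h was 0.46 ± 0.16 for Srsf2 (adjusted p = 0.115) and 0.43 ± 0.12 for Srsf6 (adjusted p = 0.0656), and both had a smooth course (adjusted p = 4.99e-05 for Srsf2 and 0.0029 for Srsf6).

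Probe sets of these SR genes did not all follow 1 course. For Srsf3, 5 of 6 probe sets were at ratios of 0.399 to 0.619 at 0 h, whereas the other was at 1.22. This divergent probe set was highest at 1.0 h (1.46) and reached 0.835 at 5.0 h; its difference of late minus early was -0.46 (adjusted p = 0.0149), while the other 5 lay between 0.26 and 0.55. A similar split was seen in Srsf6, where 1 of 4 probe sets was at 1.51 at 2.0 h and had a late-minus-early difference of -0.51 (adjusted p = 0.00648), against 0.00 to 0.07 for the other 3 probe sets. In Srsf2, 3 of 4 probe sets were at 0.512 to 0.68 at 0 h and the other was at 1.11. These 3 all end in _s_at, and their early minus 0 h differences were 0.53 to 0.79, against -0.19 for the other. The early rise of Srsf2 thus rests on probe sets of that ending. A gene mean therefore averages probe sets that moved apart, and the annotation used here does not place the probe sets on exons.

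**Figure D2:**
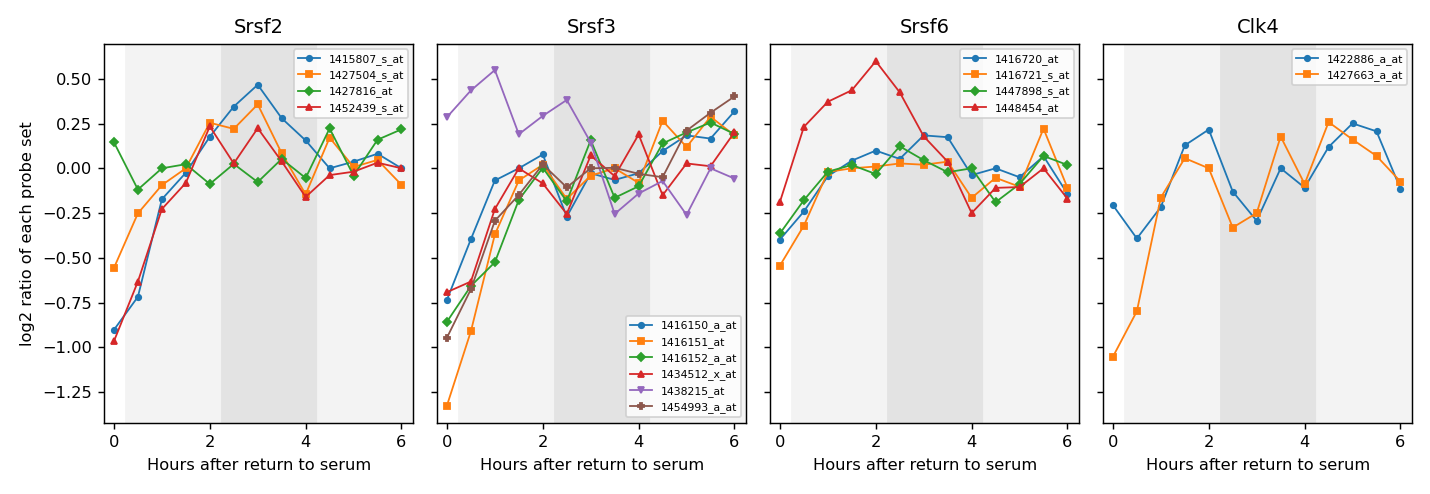
Log2 of the deposited ratio against hours after return to serum for the probe sets of Srsf2, Srsf3, Srsf6 and Clk4, 1 line per probe set and bands for the windows. At 0 h 1 Srsf3 probe set lay above 0 (a ratio of 1.22), and the other 5 lay below 0 (ratios of 0.399 to 0.619).

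Srsf1 and Srsf10 changed late. Srsf1, the SR protein first purified as a splicing factor, stood at -0.20, -0.10, -0.10 and -0.01 early, at -0.13, 0.06, -0.12 and -0.17 in the middle window, and at 0.14, 0.23, 0.34 and 0.32 late. Srsf10, which represses splicing when dephosphorylated, stood at -0.43, -0.15, -0.01 and -0.01 early, at -0.16, -0.02, -0.26 and -0.17 in the middle window, and at 0.16, 0.22, 0.31 and 0.34 late. For both genes every late array lay above every earlier one. Late minus middle was 0.35 ± 0.07 for Srsf1 (adjusted p = 0.00542) and 0.41 ± 0.09 for Srsf10 (adjusted p = 0.00927), and late minus early was 0.36 ± 0.07 (adjusted p = 0.00119) and 0.41 ± 0.09 (adjusted p = 0.00382). All 7 Srsf1 probe sets had a late-minus-early difference above 0, from 0.08 to 0.60, and 5 of them passed on their own.

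Srsf11, an SR-related protein, went the other way. Its values were 0.02, -0.44, -0.07 and -0.27 on the middle arrays, against 0.37, 0.17, 0.26 and 0.04 on the early arrays, a difference of -0.40 ± 0.10 (adjusted p = 0.00986), with every middle value below every early one. Late minus early was -0.34 ± 0.10 (adjusted p = 0.0216), a call lost without the 0.5 h, the 1.5 h or the 6.0 h array. All 4 Srsf11 probe sets were lower in the middle than the early window, and 3 passed on their own. In late minus early they ran from -0.58 to 0.02 and 1 passed, and in late minus middle from -0.19 to 0.54. Among the remaining SR genes, Srsf4 and Srsf9 passed in no test, and Srsf12 lay between -0.90 and -0.62 on all 13 arrays, below its reference value throughout.

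**Figure D3:**
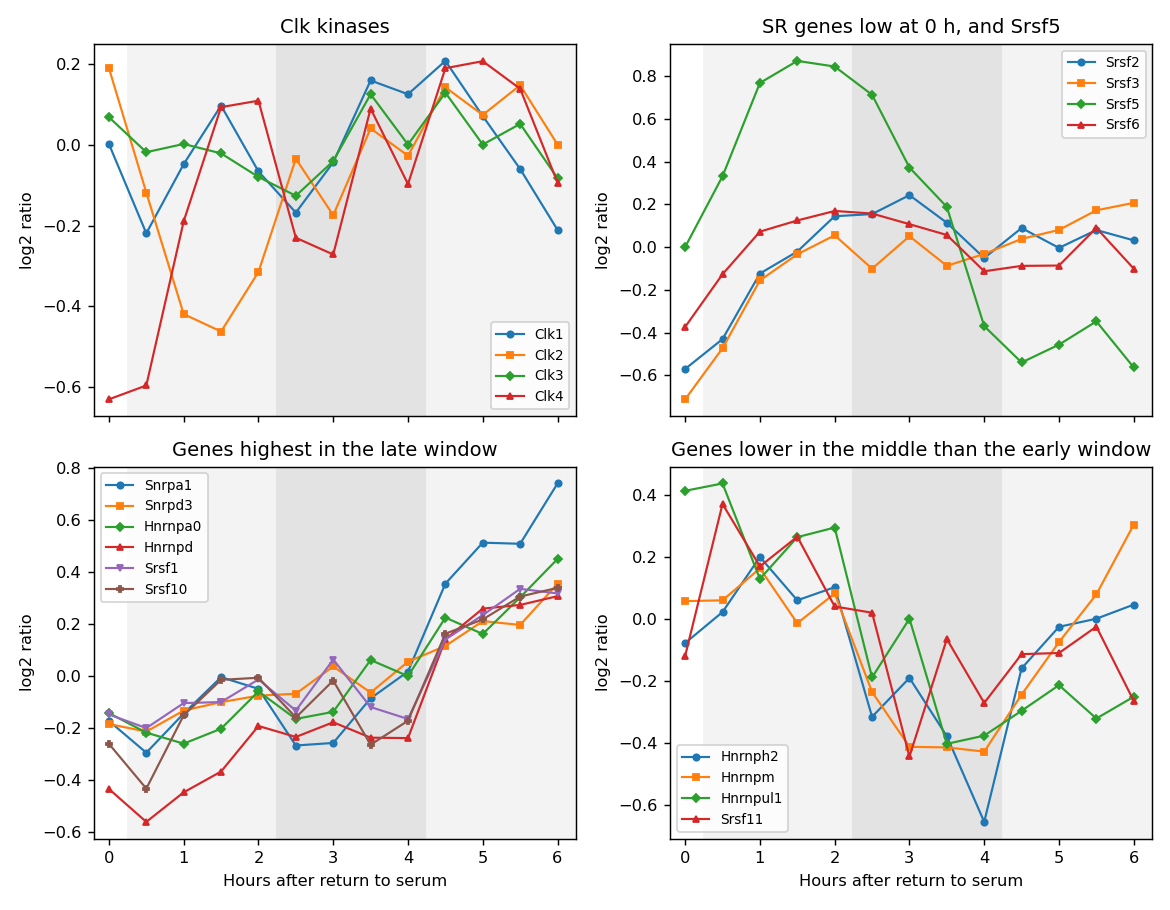
Log2 ratio against hours after return to serum for selected members, 1 line per gene, with grey bands for the early, middle and late windows. Srsf5 reached 0.87 at 1.5 h, Clk2 was lowest at 1.5 h (-0.46), and Snrpa1 was highest at 6.0 h (0.74).

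Of the 4 Clk kinases, Clk2 (chr3:89164795-89177087) was the 1 member of any group called between the early window and 0 h. It stood at 0.19 at 0 h, -0.12 at 0.5 h, -0.42 at 1.0 h, -0.46 at 1.5 h, -0.31 at 2.0 h, -0.04 at 2.5 h, -0.17 at 3.0 h, 0.04 at 3.5 h, -0.03 at 4.0 h, 0.14 at 4.5 h, 0.07 at 5.0 h, 0.15 at 5.5 h and 0.00 at 6.0 h. All 4 early values lay below the 0 h value and below all 4 late values, and the lowest array was at the time of the Srsf5 peak. Early minus 0 h was -0.52 ± 0.12 (adjusted p = 0.0319), middle minus early 0.28 ± 0.07 (adjusted p = 0.0163), late minus early 0.42 ± 0.07 (adjusted p = 0.00101), and the smooth course had an adjusted p of 0.00108. The fall against 0 h rests on 1 array at 0 h: it was lost under quantile normalisation and without the 1.0 h, the 1.5 h or the 5.0 h array. The call of middle minus early was lost without the 1.0 h or the 3.5 h array, and Clk2 was read by 1 probe set. With 1 of 51 members (1.96%) called in early minus 0 h, and a background of 3.26%, the members did not stand out in that comparison.

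Clk4 was low at the start. Its values were -0.63 at 0 h, -0.60 at 0.5 h, -0.19 at 1.0 h, 0.09 at 1.5 h, 0.11 at 2.0 h, -0.23 at 2.5 h, -0.27 at 3.0 h, 0.09 at 3.5 h, -0.10 at 4.0 h, 0.19 at 4.5 h, 0.21 at 5.0 h, 0.14 at 5.5 h and -0.09 at 6.0 h. The 0.5 h array was as low as the 0 h array, so early minus 0 h was 0.48 ± 0.21 (adjusted p = 0.218), while the smooth course passed (adjusted p = 0.000819). Its 2 probe sets differed: early minus 0 h was 0.83 for 1 and 0.14 for the other. Late minus early was 0.26 ± 0.13 (adjusted p = 0.212).

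Clk1 and Clk3 passed in no test. Clk1 stood at 0.00, -0.22, -0.05, 0.10, -0.07, -0.17, -0.04, 0.16, 0.12, 0.21, 0.07, -0.06 and -0.21 at the 13 times in order, with a smooth-course adjusted p of 0.0518. Clk3 stood at 0.07, -0.02, 0.00, -0.02, -0.08, -0.13, -0.04, 0.12, 0.00, 0.13, 0.00, 0.05 and -0.08, with an adjusted p of 0.322. Late minus early was 0.06 for Clk1 (adjusted p = 0.735) and 0.05 for Clk3 (adjusted p = 0.624), and the sign of several of their window differences changed when single arrays were left out.

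Without the 0.5 h array, the early window called 6 members against 0 h (11.8%), where 7.87% of all genes were called in the same fit: Srsf3 at 0.67 ± 0.10 (adjusted p = 0.00214), Srsf2 at 0.57 ± 0.12 (adjusted p = 0.0104), Srsf6 at 0.50 ± 0.11 (adjusted p = 0.0155), Clk4 at 0.63 ± 0.15 (adjusted p = 0.025), Hnrnpdl at 0.36 ± 0.10 (adjusted p = 0.0342) and Clk2 at -0.59 ± 0.10 (adjusted p = 0.00391). All but Clk2 were higher than at 0 h. Against 0 h, 8 of 10 SR genes had an early value above 0 h, beside 7802 of all 18193 genes. The SR median difference was 0.22, beside 0.02 over the 51 members and -0.03 over all genes. Without probe sets ending in _x_at or _s_at the SR median was 0.07. No SR, snRNP or hnRNP gene passed with all arrays in the fit. The largest snRNP differences were -0.25 ± 0.13 for Snrpe (adjusted p = 0.302), a protein of the Sm core, and 0.23 ± 0.09 for Sf3b4 (adjusted p = 0.154). Among hnRNP genes they were 0.28 ± 0.13 for Hnrnpdl (adjusted p = 0.235) and 0.26 ± 0.11 for Hnrnpab (adjusted p = 0.218).

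In the middle window, hnRNP genes made up most of the members that fell. Between the middle and early windows 7 of 51 members fell (13.7%) and 1 rose (1.96%), 15.7% in all, where 22.2% of all genes were called, 14.4% lower and 7.74% higher. The members' share was no larger than the background. The 7 were Hnrnpul1, Hnrnph2, Hnrnpm, Hnrnph1, Hnrnpa2b1, Sf3b2 and Srsf11, so 5 of 19 hnRNP genes fell (26.3%). Of the 19, 15 had a difference below 0, beside 9139 of all 18193 genes. The median difference was -0.08 for hnRNP genes, -0.03 for snRNP genes, -0.00 for SR genes and 0.05 for Clk genes, beside -0.00 for all genes. The window comparisons share arrays, so a gene's differences in them are not independent.

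Hnrnpul1, a relative of the nuclear matrix protein Hnrnpu, stood at 0.41 at 0 h, at 0.44, 0.13, 0.26 and 0.29 early, at -0.19, 0.00, -0.40 and -0.38 in the middle window, and at -0.30, -0.21, -0.32 and -0.25 late. No middle or late value reached any early value. Middle minus early was -0.52 ± 0.09 (adjusted p = 0.00109) and late minus early -0.55 ± 0.09 (adjusted p = 0.000379).

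Hnrnph2 and Hnrnpm dipped and returned. Hnrnph2, which binds G-rich RNA, stood at 0.02, 0.20, 0.06 and 0.10 early, at -0.32, -0.19, -0.38 and -0.66 in the middle window, and at -0.16, -0.03, 0.00 and 0.05 late. Hnrnpm stood at 0.06, 0.16, -0.01 and 0.08 early, at -0.24, -0.41, -0.42 and -0.43 in the middle window, and at -0.24, -0.08, 0.08 and 0.30 late. For both, every middle value lay below every early value. Middle minus early was -0.48 ± 0.09 for Hnrnph2 (adjusted p = 0.00161) and -0.45 ± 0.09 for Hnrnpm (adjusted p = 0.00462), and late minus middle was 0.35 ± 0.09 for Hnrnph2 and 0.39 ± 0.09 for Hnrnpm (adjusted p = 0.0172 for each). The late-minus-middle call of Hnrnpm was lost without the 5.5 h array, and that of Hnrnph2 without the 5.5 h or the 6.0 h array. Both genes were read by 1 probe set. Hnrnph1, closely related to Hnrnph2, also fell in the middle window, by 0.23 on the log2 scale (SE 0.06, adjusted p = 0.0149).

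Sf3b2, a subunit of the SF3b complex of the U2 snRNP, was the 1 snRNP gene called there, with -0.15, -0.11, -0.21 and -0.31 on the middle arrays against 0.07, 0.10, -0.01 and 0.06 on the early ones. Its difference was -0.25 ± 0.06 (adjusted p = 0.0103), and 5 of its 7 probe sets passed on their own, with a range of -0.51 to 0.22 over the 7.

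Late in the course, 15 of the 17 members that rose were snRNP and hnRNP genes, the largest groups with 18 and 19 of 51 members. Between the late and middle windows 17 of 51 members rose (33.3%) and 1, Srsf5, fell, where the background over all genes was 12.3%, with 10.3% higher and 2.06% lower. By group 9 of 19 hnRNP genes rose (47.4%), 6 of 18 snRNP genes (33.3%), 2 of 10 SR genes and 0 of 4 Clk genes. Differences were above 0 in 40 of 51 members, beside 10435 of all 18193 genes. The median was 0.20 for hnRNP, 0.19 for snRNP, 0.09 for Clk and 0.08 for SR genes, beside 0.02 for all genes. With each array centred on its median 13 members were called (11 higher, 2 lower), or 25.5%, against 10.4% of all genes in that fit. The count of 18 dropped to 7 without the 6.0 h array (13.7%, against 6.07% of all genes), 9 without 5.5 h (17.6%, against 7.02%), 10 without 2.5 h (19.6%, against 7.70%) or 5.0 h (19.6%, against 9.12%) and 11 without 3.5 h (21.6%, against 9.86%).

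Snrpa1 had the largest late rise. It encodes the A′ protein of the U2 snRNP, and lies at chr7:66060336-66074587. The values were -0.17 at 0 h, -0.29, -0.14, -0.00 and -0.05 early, -0.27, -0.26, -0.09 and 0.02 in the middle window, and 0.36, 0.51, 0.51 and 0.74 late. Every late value lay above every other value. Late minus middle was 0.68 ± 0.09 (adjusted p = 0.00139) and late minus early 0.65 ± 0.09 (adjusted p = 0.000163), and the 3 probe sets each passed, with late-minus-early differences of 0.51 to 0.73. Its highest array was 2.05-fold above its lowest.

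Members of the Sm core, the protein ring around the snRNAs, rose less. Snrpd3 stood at -0.21, -0.13, -0.10 and -0.08 early, at -0.07, 0.04, -0.06 and 0.06 in the middle window, and at 0.12, 0.21, 0.20 and 0.36 late, above all earlier values. Late minus early was 0.35 ± 0.06 (adjusted p = 0.000786), a call lost without probe sets ending in _x_at or _s_at, which can match several transcripts. Late minus middle was 0.23 ± 0.06 for Snrpd3 (adjusted p = 0.0241) and 0.33 ± 0.10 for Snrpf (adjusted p = 0.0406), calls lost under 7 and 10 other settings. Snrpb, another Sm protein, had a late-minus-early difference of 0.29 ± 0.07 (adjusted p = 0.0097). Snrpe and Snrpg, of the same ring, were not called in any window comparison.

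In the SF3 complexes, which hold the U2 snRNP at the branch point, 3 genes of 9 rose between the late and middle windows: Sf3b6, which contacts the branch point, by 0.26 ± 0.07 (adjusted p = 0.019, lost without the 2.5 h or the 6.0 h array), Sf3a1 by 0.19 (adjusted p = 0.0353) and Sf3b2 by 0.20 (adjusted p = 0.0434). The 4 Sf3a1 probe sets ran from -0.05 to 0.47 here, and only 1, ending in _s_at, passed on its own. For Sf3b2 the 7 probe sets ran from -0.02 to 0.64, and 2, both ending in _x_at, passed. Sf3a3 had a late-minus-early difference of 0.29 ± 0.08 (adjusted p = 0.0174), lost without the 0.5 h, the 5.5 h or the 6.0 h array.

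Hnrnpd (chr5:99955935-99979130), whose protein binds AU-rich elements and promotes mRNA decay, had the largest late rise among hnRNP genes. It stood at -0.43 at 0 h, at -0.56, -0.45, -0.37 and -0.19 early, at -0.23, -0.18, -0.24 and -0.24 in the middle window, and at 0.14, 0.26, 0.27 and 0.31 late. The late values lay apart from all earlier ones. Late minus early was 0.64 ± 0.07 (adjusted p = 3.85e-05) and late minus middle 0.47 ± 0.07 (adjusted p = 0.00193). All 3 probe sets passed in both comparisons, but their sizes differed. In late minus early 1 probe set was at 1.30 and the others at 0.30 and 0.32. In late minus middle the same probe set was at 0.80 and the others at 0.33 and 0.27. The size of the gene's rise thus rests largely on 1 probe set. Hnrnpa0 stood at -0.22, -0.26, -0.20 and -0.06 early, at -0.16, -0.14, 0.06 and 0.00 in the middle window, and at 0.23, 0.16, 0.30 and 0.45 late, with a late-minus-early difference of 0.47 ± 0.07 (adjusted p = 0.000396). Hnrnpab rose by 0.29 ± 0.07 between the same windows (adjusted p = 0.0107), although 1 of its 7 probe sets was at -0.62 where another was at 0.71. Hnrnpf rose by 0.19 ± 0.06 (adjusted p = 0.0368), a call lost under 7 other settings.

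**Figure D4:**
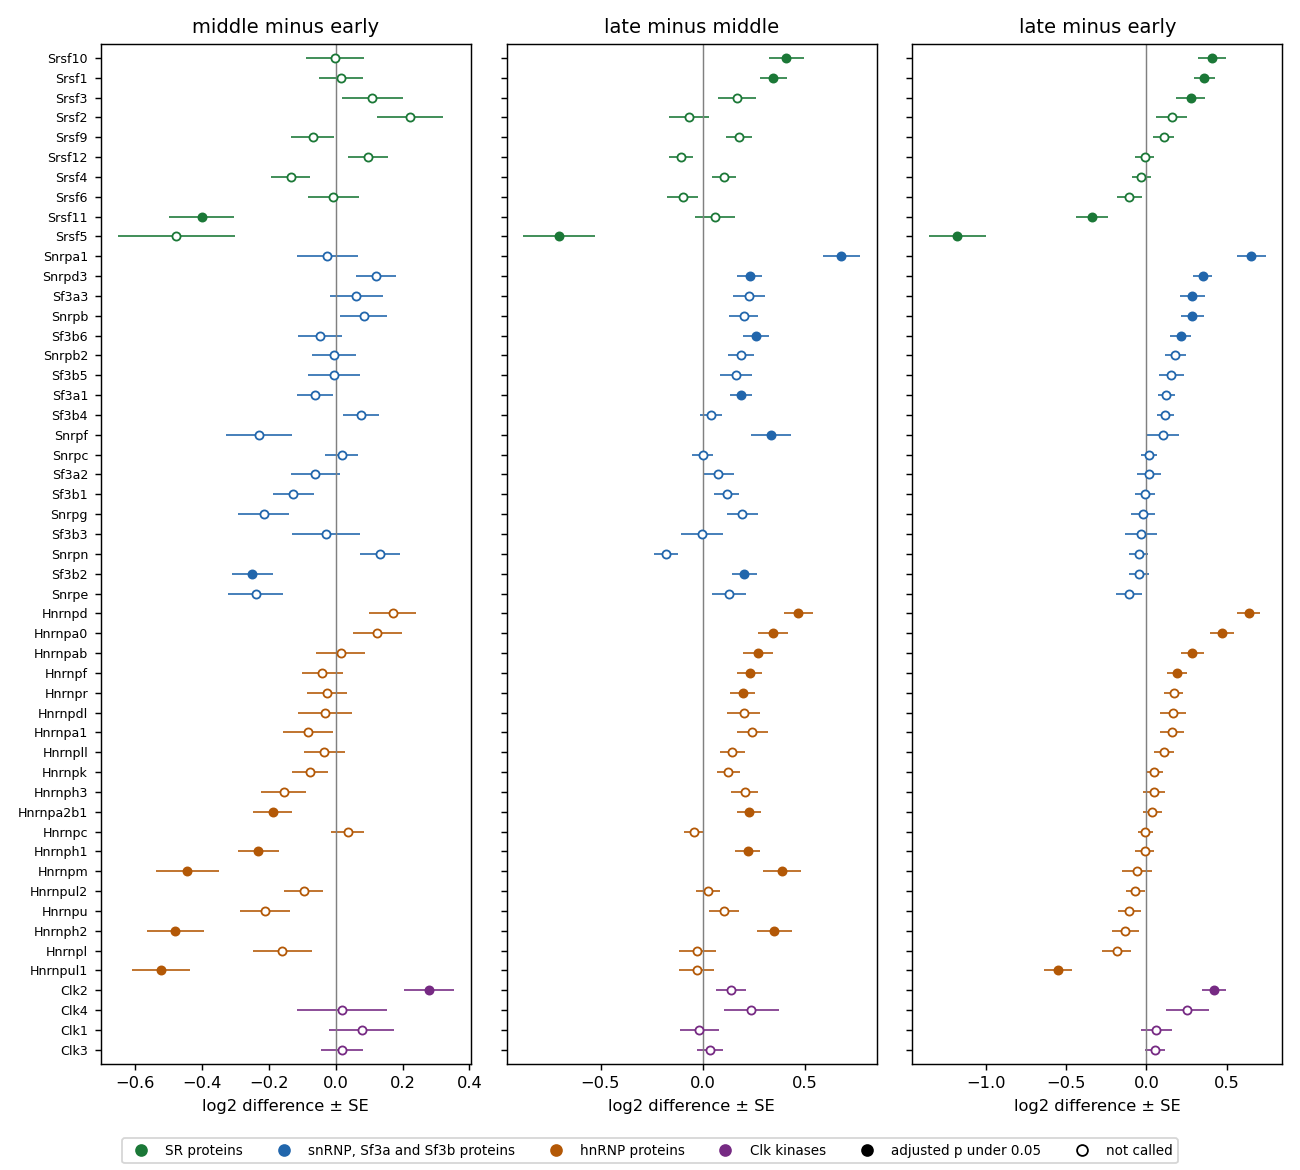
Log2 difference of each member between windows (horizontal axis) by group, in panels of middle minus early, late minus middle and late minus early, with bars of 1 SE, filled points for members that passed the test and open points for the others. Late minus middle was above 0 in 40 of 51 members, beside 10435 of all 18193 genes, and Snrpa1 had the members' largest rise, 0.68.

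Over the longer step of late minus early, 16 of 51 members were called (31.4%), where the background was 21.0%. Of these 13 rose (25.5%, beside 11.7% of all genes) and 3 fell (5.88%, beside 9.29%), the 3 being Srsf5, Srsf11 and Hnrnpul1. By group 3 SR genes rose and 2 fell, 5 snRNP genes rose and 0 fell, 4 hnRNP genes rose and 1 fell, and 1 Clk gene rose. Median differences were 0.11 for snRNP, 0.05 for hnRNP, 0.05 for SR and 0.16 for Clk genes, beside 0.02 over all genes. Both comparisons use the late arrays.

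Other values moved with the late window. The 5′ probe set for 18S ribosomal RNA, an array control, had ratios of 0.411 to 1.40 early, 0.454, 0.397, 1.24 and 2.14 in the middle window, and 0.889, 3.92, 2.67 and 5.24 late, while the Gapdh and actin controls lay between 0.916 and 1.13 on all arrays. The 3′ set for 18S was at 0.949 to 1.57 late, against 0.896 to 1.11 in the middle window. Its middle set was at 0.999 to 1.40, against 0.725 to 1.03. Each of the 3 actin control probe sets was higher on every late array than on every middle array: the 5′ set was at 1.02 to 1.13 late, against 0.96 to 0.982 in the middle window, the middle set at 1.015 to 1.11, against 0.916 to 0.955, and the 3′ set at 1.00 to 1.09, against 0.932 to 0.974. Of 12 markers of differentiated muscle, 8 rose between the late and middle windows (median 0.32). Between the late and early windows 9 rose (median 0.33). The 10 myoblast markers had medians of 0.02 and 0.00, with 2 and 1 called higher. Over all genes, late minus middle called 10.3% higher and 2.06% lower, and late minus early 11.7% higher and 9.29% lower. Immune and endothelial markers had 0 of 5 called (limma), and fibroblast markers 0 of 6 and 1 of 6, the 1 lower. The part of the 18S and actin signals and of these markers in the late rises was not tested. With the late window reduced to the 4.5 h array, chosen after seeing the 18S values, late minus middle called 0 members and 0 genes in all, and late minus early called 1, Hnrnpd, and 535 genes; this leaves 1 array in the window.

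A 2 h oscillation on top of a smooth trend was called in 0 members and 0 of 18193 genes (limma F test). At an unadjusted p under 0.05 there was 1 member, Srsf5 (adjusted p = 0.998), which is 1.96% of the members, against 721 of all genes (3.96%). Periods of 2.5 h and 1.5 h also called 0 members.

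Other splicing genes were counted beside the members, where late minus early called 11.7% of all genes higher and 9.29% lower, and middle minus early 14.4% lower. Of 14 measured genes for snRNP assembly, 8 rose and 0 fell between the late and early windows (median 0.31), among them Wdr77 (0.88 ± 0.11), Prmt5 (0.80 ± 0.09) and Gemin2 (0.73 ± 0.11); Prmt5 and Wdr77 methylate Sm proteins and Gemin2 belongs to the SMN complex that loads the Sm ring. Of 12 genes named Lsm, 4 rose and 0 fell (median 0.15): Lsm2 (0.55 ± 0.11), Lsm6 and Lsm8, whose proteins belong to the ring on U6 snRNA, and Lsm11, a protein of the U7 snRNP that processes histone pre-mRNA. Of 38 other spliceosome genes, 8 rose and 2 fell (median 0.01), with Usp39 (0.59 ± 0.10) and Prpf31 (0.52 ± 0.06) rising. Among 20 SR-like proteins and SR kinases, 5 rose and 5 fell (median -0.09): Srpk1, a kinase of SR proteins, rose by 0.41, whereas Srrm2, a scaffold of nuclear speckles, fell by 0.67 and the kinase Srpk2 by 0.35. Of 32 tissue-specific and auxiliary regulators, 3 rose and 5 fell (median 0.01), and 13 fell and 0 rose between the middle and early windows (median -0.11), among them Rbm39 (-0.62) and Sfpq (-0.44).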

How the data were processed

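Biotin-labelled RNA of 13 C2C12 samples was read on 1 Affymetrix array per sample, per the labels' protocols. The deposited values are linear ratios per probe set; RMA was used, per the submitters' processing notes, with no version, and no source used here states how they were formed. In 127 of 144 member probe sets a single array sat exactly at 1, and 3 were below 1 on every array.

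From the 45101 probe sets, 64 array controls were left out. The 34945 probe sets with 1 gene symbol gave 18193 genes, each the mean log2 ratio of its probe sets, with no filter on low values, since ratios hold no signal level. All 51 member symbols matched RefSeq. Probe sets that may match near-identical copies were kept, and the fit without them is an alternative. Array medians lay between 0.977 and 1.00. Scan dates were not among the sources, which left no batch to test, and the number of arrays limits the precision.

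Window means of all 13 arrays were fitted in 1 model with limma 3.58.1 (lmFit, eBayes, two-sided) in R 4.3.3, with Benjamini-Hochberg adjustment over all genes and a threshold of 0.05; a single array at 0 h is assumed to vary like the others. The smooth course was an F test of a natural spline with 4 degrees of freedom, and the oscillation a cosine and sine with a trend of 3 degrees of freedom. Single probe sets were tested the same way over the 45037 non-control probe sets. The models were tested on simulated data. Tables, motif searches and figures were made in Python 3.11.15 (matplotlib 3.10.9, numpy 2.4.6, pandas 2.3.3). Alternatives were other normalisation, centring, variance prior, probe set filters, windows, spline and periods, a minimum change, and leaving out each array.

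Named were the 4 Clk genes, and for each other group and window comparison up to 4 called members with the largest rise and up to 4 with the largest fall, or the 2 with the largest absolute difference where none was called. The members and lists were chosen with earlier results of these data known.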

Additional observations from a re-analysis of the deposited data

Results flagged for a closer look

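Of 81 sets of 4 arrays checked (3 windows for each of 27 named genes), 4 held an array set apart from the other 3; chance alone sets apart about 1 in 20. Hnrnpd was higher at 3.0 h (-0.18) than on the other middle arrays (-0.24 to -0.23). Hnrnpdl was lower at 0.5 h (-0.32) than on the other early arrays (0.02 to 0.04), and higher at 2.5 h (0.013) than on the other middle arrays (-0.13 to -0.12). Hnrnpm was higher at 2.5 h (-0.24) than on the other middle arrays (-0.43 to -0.41). Arrays of a window are neighbouring times, not replicates, and the cause was not tested.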

How the results depend on the processing

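The count of members called in early minus 0 h, 1 as reported, was 0 under quantile normalisation, and 2 with each array centred on its median, without probe sets ending in _x_at or _s_at, and without probe sets on 1 side of a ratio of 1 throughout; leaving out single arrays gave 0 to 6 (6 without 0.5 h, 0 without 1.0 h, 1.5 h or 5.0 h). In these fits all genes were called at 0.198% (quantile), 3.29%, 3.48% and 3.41% (centring and both probe set filters) and, without those arrays, 7.87%, 2.07%, 1.64% and 2.00%. With a minimum absolute log2 difference of 0.5, 1 member was called in middle minus early (1.96%, against 3.62% of all genes), 2 in late minus middle (3.92%, against 1.38%) and 4 in late minus early (7.84%, against 5.37%). Leaving out single arrays gave 7 to 22 members in late minus middle (7 without 6.0 h, 9 without 5.5 h, 10 without 2.5 h or 5.0 h, 11 without 3.5 h, 22 without 0.5 h) and 11 to 16 in late minus early; members ran from 13.7% to 43.1% and all genes from 6.07% to 14.1% in late minus middle, and members from 21.6% to 31.4% and all genes from 17.1% to 21.3% in late minus early. With the late window reduced to the 4.5 h array, a setting added after seeing the data, the counts were 0 and 1, against 0 and 535 of all genes. Differences near 0 changed sign when single arrays were left out: Clk4 middle minus early ran from -0.13 to 0.10, Clk3 middle minus early from -0.026 to 0.058, Clk3 late minus middle from -0.0037 to 0.080, Clk1 late minus middle from -0.085 to 0.055 and Clk1 late minus early from -0.0075 to 0.13; with the 4.5 h array alone, Clk1 late minus middle was 0.19. The SR median of early minus 0 h was 0.07 without probe sets ending in _x_at or _s_at, and the Clk median of late minus early was 0.30 with the 4.5 h array alone. The minimum difference of 0.5 was not part of the checks of single calls, here or above. In middle minus early only 1 member passed it, and Srsf11 (-0.40) and Sf3b2 (-0.25), for example, lie below it. Of 34 calls of named genes, 21 held under every other setting except the 4.5 h one. That setting, which was not run for the early and middle comparisons, lost 14 of these 21 calls, all of the late comparisons, and kept Hnrnpd in late minus early; the other 6 are Srsf11, Sf3b2, Hnrnpul1, Hnrnph2, Hnrnpm and Hnrnph1 in middle minus early. The causes were not tested, except that the 4.5 h setting has fewer arrays. No paired analysis was possible because the labels give no replicate numbers. Changes of dim transcripts cannot be judged, as the ratios hold no signal over background.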
